A study of Mus musculus with 10 samples.

Results

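Transcripts of 47 mouse genes of central carbon metabolism were compared between splenic IgG1 and IgM plasma cells. The genes were taken as a list of symbols of enzymes and transporters, 21 of glycolysis with its sugar and lactate transporters, 4 of the pyruvate dehydrogenase step, 7 of the pentose phosphate pathway and 15 of the citrate cycle. The list was chosen with earlier results of these data known. Each was matched by Ensembl identifier to GENCODE release M21 on GRCm38, and all 47 were found among the 47719 genes of the deposited files. The RNA came from 10 libraries of sorted cells, 5 of IgG1 and 5 of IgM plasma cells. Every donor cell carried S1PR2-CreERT2, the Ai14 reporter and the B1-8 heavy chain in its germline form. S1PR2-CreERT2 is a Cre that tamoxifen switches on in cells expressing the germinal centre receptor S1PR2 around that time. Ai14 yields tdTomato once Cre has acted. Both groups were collected from spleens of immunized wild-type recipients on day 10 as labelled donor cells, following NP-CGG with alum (day 0) and tamoxifen (days 5 and 6). The groups differ by label in isotype alone, and only cells that were S1PR2-positive around the tamoxifen days, or descend from such cells, can carry the mark. The sources used here give neither the ages of the animals nor whether cells of several animals were pooled. Since nothing in the labels ties each library to its own animal, the p-values weigh differences against the spread between these samples alone, and that spread may be technical.

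Glycolysis splits a glucose molecule into pyruvate in the cytosol and yields ATP and NADH. Pyruvate is either reduced to lactate, which restores NAD+, or enters mitochondria, where the pyruvate dehydrogenase complex turns it into acetyl-CoA for the citrate cycle, which feeds electrons to the respiratory chain. The pentose phosphate pathway branches off at glucose 6-phosphate and supplies NADPH and ribose phosphate for nucleotides. In plasma cells, imported glucose is also known as a source of the sugars on antibodies, and mitochondrial pyruvate import has been tied to their long-term survival.

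The values are FPKM, by definition a gene's fragments divided by transcript length and by library size. The sources used here do not say how library size was counted. Immunoglobulin genes held 62.5 to 73.1% of the summed FPKM in the IgG1 and 68.7 to 73.5% in the IgM libraries. The summed FPKM itself was 1333417 to 1931343 in the IgG1 and 1589961 to 1934268 in the IgM libraries. In each group the library with the lowest sum had the lowest immunoglobulin share, and that with the highest sum the highest share. Jchain, the antibody joining chain, averaged 21143 FPKM in IgG1 and 38835 FPKM in IgM cells. The depth that can be read from the spacing of low FPKM values was 26400000 to 38400000 fragments in the IgG1 and 26900000 to 31200000 in the IgM libraries, and 13286 to 13961 genes in IgG1 and 15121 to 15800 genes in IgM libraries were listed above 0. All 7 plasma cell markers were tested and detected in both groups, 1 (Xbp1) higher and 6 lower in IgG1 cells. Over all tested genes 18.1% were higher and 20.2% lower. Sdc1, the surface marker CD138, averaged 258 ± 12.3 FPKM in IgG1 and 284 ± 12.8 FPKM in IgM cells (SD, n = 5 each), and Prdm1, the plasma cell regulator Blimp-1, averaged 29.2 ± 2.70 FPKM in IgG1 and 53.5 ± 2.71 FPKM in IgM cells. Of 8 T cell markers, 8 macrophage and monocyte markers and 7 erythroid markers, the summed levels were 2.61 to 4.54, 15.8 to 23.8 and 0.694 to 4.23 FPKM in the IgG1 libraries, and 4.24 to 6.75, 33.1 to 40.7 and 0.0764 to 5.60 FPKM in the IgM libraries, most of the macrophage sum being Cd68, the 1 of 4 tested genes of that list that passed, as lower in IgG1 cells. Within the T cell list, Cd4 was higher in IgG1 cells, at 1.87 FPKM in IgG1 and 0.280 FPKM in IgM cells (adjusted p = 0.00458, log2 difference 1.12). Trac was lower, at 0.201 FPKM in IgG1 and 2.37 FPKM in IgM cells (adjusted p = 3.41e-04, log2 difference −1.47). Of 6 neutrophil markers, S100a8, S100a9, Camp and Elane were at 0 in every library. In sorted bulk samples, fewer cells of a type and less RNA per cell cannot be told apart.

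Most of the tested carbon metabolism genes were higher in IgG1 cells, and they lay along the glycolytic chain from Gpi1 to Ldha, in the pentose phosphate pathway and in part of the citrate cycle. Of the 47 genes, 45 had a mean of at least 1 FPKM and were tested, and in IgG1 cells 24 of them were higher and 0 were lower, by limma at a Benjamini-Hochberg adjusted p under 0.05 over 9900 genes. That is 53.3% of the tested members, where 18.1% of all tested genes were higher and 20.2% lower, 38.3% in either direction. Because the members were chosen with earlier results of these data known, this excess is a description and no independent evidence. With quantile normalization the split over all genes turned, with 2182 higher and 1510 lower in place of 1791 and 2001, and the members' counts were 23 and 0. At an unadjusted p under 0.05, 24 were higher and 1, Pfkfb3, was lower. The median log2 difference, IgG1 minus IgM on the scale of FPKM plus 1, was 0.28 over the members and −0.05 over all tested genes. Abundant genes were called more often, and 29.2% of the 5202 genes that averaged 10 FPKM or more were higher and 50.4% were called in either direction. Of the 36 members at that level 24 were higher, and of the 9 tested members below it 0 were called by limma (Pfkfb3, lower, was the 1 with an unadjusted p under 0.05). In 22 of the 45 tested members, and 22 of the 36 at 10 FPKM or more, every IgG1 library lay above every IgM library. These were the called genes without Dlat and Fh1. Of all tested genes 13.1%, and of those at 10 FPKM or more 22%, were higher without overlap.

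**Figure D1:**
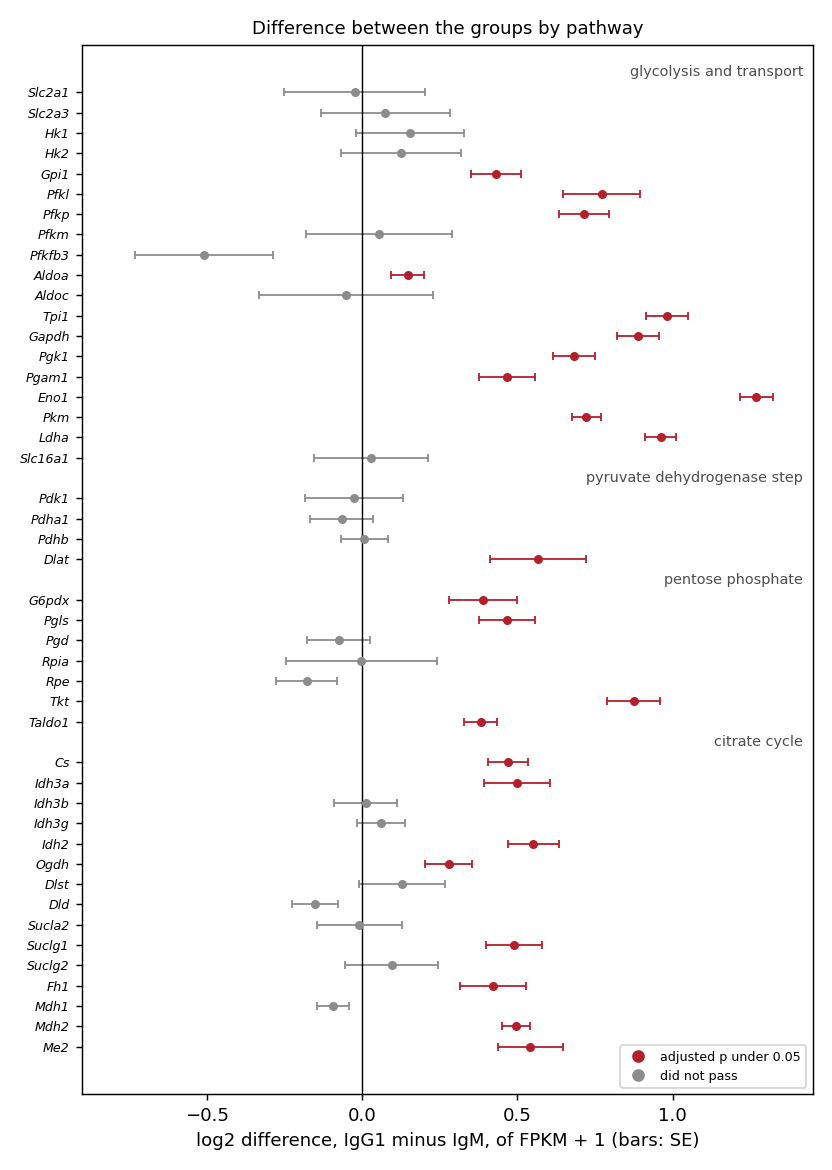
Log2 difference between IgG1 and IgM cells, on the scale of FPKM plus 1, for the 45 tested genes grouped by pathway and ordered along it, with SE bars. The 24 genes in red passed at an adjusted p under 0.05, all to the right of 0, from Aldoa at 0.15 to Eno1 at 1.27.

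None of the genes for glucose uptake and the first step of glycolysis passed the test (0 of 4 by limma, and 0 at an unadjusted p under 0.05). Slc2a1, the glucose transporter GLUT1, had 2.74, 8.32, 6.62, 4.96 and 6.66 FPKM in the IgG1 libraries, against 5.73, 5.53, 6.42, 7.00 and 4.07 FPKM in the IgM libraries. The groups overlapped throughout, and IgG1 replicate 1 was lowest of all 10 (log2 difference −0.024, SE 0.23, adjusted p = 0.947). Slc2a3, the transporter GLUT3, averaged 3.30 ± 0.728 FPKM in IgG1 and 3.10 ± 0.848 FPKM in IgM cells, with overlap (SD, n = 5 each; adjusted p = 0.804, log2 difference 0.075). Hexokinase traps glucose in the cell as glucose 6-phosphate. Its form Hk2 had 3.55, 3.43, 6.07, 5.11 and 5.08 FPKM in the IgG1 libraries, against 3.71, 4.74, 3.28, 5.35 and 3.67 FPKM in the IgM libraries (log2 difference 0.13, SE 0.19, adjusted p = 0.639), and the groups overlapped. Hk1 averaged 7.89 ± 2.16 FPKM in IgG1 and 6.84 ± 0.717 FPKM in IgM cells (SD, n = 5 each; adjusted p = 0.507, log2 difference 0.15). These 4 genes lay between 3.20 and 7.37 FPKM on average over all libraries, and with SEs of 0.17 to 0.23 on the log2 scale, differences of that size could not be detected.

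From glucose 6-phosphate down to fructose bisphosphate, the main expressed forms were higher in IgG1 cells. Gpi1, which turns glucose 6-phosphate into fructose 6-phosphate, had 87.3, 81.0, 89.9, 84.5 and 78.2 FPKM in the IgG1 libraries, against 59.2, 65.8, 69.8, 64.8 and 52.3 FPKM in the IgM libraries. Every IgG1 library was above every IgM library (log2 difference 0.43, SE 0.08, adjusted p = 4.10e-04). Phosphofructokinase, made from the Pfkl, Pfkp and Pfkm subunits, commits the sugar to glycolysis. Its most abundant subunit Pfkp (ENSMUSG00000021196, chromosome 13, 6579768 to 6648777, minus strand) had 60.7, 58.8, 57.5, 54.3 and 59.6 FPKM in the IgG1 libraries, against 37.2, 36.6, 37.1, 33.2 and 31.5 FPKM in the IgM libraries, 1.66 times as much by the ratio of means, with no overlap (log2 difference 0.72, SE 0.08, adjusted p = 1.84e-06). Pfkl had 24.3, 20.7, 21.4, 22.1 and 27.2 FPKM in the IgG1 libraries, against 11.3, 15.3, 14.0, 13.4 and 11.7 FPKM in the IgM libraries, again with all IgG1 libraries on top (log2 difference 0.77, SE 0.12, adjusted p = 7.84e-05). The muscle subunit Pfkm stood near 1 FPKM in both groups, at 1.12 FPKM in IgG1 and 1.06 FPKM in IgM cells on average (adjusted p = 0.881, log2 difference 0.054). Pfkfb3, which makes the phosphofructokinase activator fructose 2,6-bisphosphate, was the member with the most negative value. It had 1.03, 1.66, 0.911, 0.679 and 0.844 FPKM in the IgG1 libraries, against 1.58, 1.57, 2.21, 2.33 and 1.64 FPKM in the IgM libraries, groups that overlapped through IgG1 replicate 2, and a difference that did not pass (log2 difference −0.51, SE 0.22, adjusted p = 0.0810). Pfkfb3 passed with length and GC trends removed (adjusted p = 0.0482) and with limma's plain variance model (adjusted p = 0.0154), and its adjusted p ran from 0.0154 to 0.379 over the alternatives. The 3′ end of Pfkp overlaps the oppositely oriented gene Pitrm1 by 748 bases, and libraries of this kind keep no strand. Pitrm1 averaged 24.6 FPKM in IgG1 and 14.4 FPKM in IgM libraries, so the split of reads between these genes is uncertain.

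The steps from aldolase to lactate held the members with the largest differences, Eno1, Tpi1, Ldha and Gapdh. They also held Aldoa, with the smallest difference of the called members. Aldoa, the aldolase of most tissues, had 199.6, 204, 195, 219.5 and 211 FPKM in the IgG1 libraries, against 193, 190.5, 182, 187 and 177 FPKM in the IgM libraries. The groups did not overlap but lay close (log2 difference 0.15, SE 0.05, adjusted p = 0.0355), and that call ended in 13 of 21 alternatives, leaving out IgG1 replicate 2, 4 or 5 or IgM replicate 3, 4 or 5 among them, over which its adjusted p ran from 0.0133 to 0.279 and its log2 difference from −0.095 to 0.17. Its relative Aldoc stood at 1.43 FPKM in IgG1 and 1.54 FPKM in IgM cells (adjusted p = 0.908, log2 difference −0.051). Tpi1, which interconverts the triose phosphate products of aldolase (ENSMUSG00000023456, chromosome 6, 124810586 to 124814296, minus strand), had 143, 147, 139, 165 and 149.9 FPKM in the IgG1 libraries, against 71.7, 69.4, 81.0, 79.7 and 72.5 FPKM in the IgM libraries, and the ratio of means was 1.99 (log2 difference 0.98, SE 0.07, adjusted p = 7.23e-09). Gapdh, the dehydrogenase that makes NADH in this pathway (ENSMUSG00000057666, chromosome 6, 125161715 to 125166467, minus strand), had 275, 276, 269, 318 and 315 FPKM in the IgG1 libraries, against 136, 153, 165, 161 and 167 FPKM in the IgM libraries. The lowest IgG1 library was well above the highest IgM library (log2 difference 0.89, SE 0.07, adjusted p = 1.81e-08). Pgk1, the first ATP-yielding enzyme of the chain, had 111, 119, 113, 123 and 113 FPKM in the IgG1 libraries, against 76.9, 77.9, 69.0, 65.0 and 70.6 FPKM in the IgM libraries (log2 difference 0.68, SE 0.07, adjusted p = 3.93e-07), and its groups were separate. Pgam1, the mutase that follows, averaged 43.0 ± 3.44 FPKM in IgG1 and 30.8 ± 1.78 FPKM in IgM cells (SD, n = 5 each; adjusted p = 4.25e-04, log2 difference 0.47), also without overlap.

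Eno1, the enolase that makes phosphoenolpyruvate, differed most of all members. Eno1 (ENSMUSG00000063524, chromosome 4, 150236721 to 150248879, plus strand) had 398, 389.5, 362, 389 and 379.7 FPKM in the IgG1 libraries, against 153, 163, 151, 153 and 174 FPKM in the IgM libraries, 2.42 times as much by the ratio of means (log2 difference 1.27, SE 0.05, adjusted p = 1.23e-11). The lowest IgG1 library, at 362 FPKM, lay far above the highest IgM library, at 174 FPKM. Pkm, pyruvate kinase and the most abundant of the glycolytic members (ENSMUSG00000032294, chromosome 9, 59656368 to 59679375, plus strand), had 558, 574, 575, 596 and 574 FPKM in the IgG1 libraries, against 319.8, 376, 344, 352 and 351 FPKM in the IgM libraries. The groups stood well apart, with little spread within IgG1 (log2 difference 0.72, SE 0.05, adjusted p = 3.31e-09). Ldha, which reduces pyruvate to lactate (ENSMUSG00000063229, chromosome 7, 46841475 to 46855627, plus strand), had 391, 407, 382, 405 and 391 FPKM in the IgG1 libraries, against 196, 188, 215, 210.0 and 205 FPKM in the IgM libraries, 1.95 times as much by the ratio of means (log2 difference 0.96, SE 0.05, adjusted p = 1.81e-10). The second lactate dehydrogenase subunit, Ldhb, was listed at 0 in all 10 libraries and was not tested. An exact 0 can be a failed estimate, so no fold is given. The lactate and pyruvate carrier Slc16a1 (MCT1) had 8.32, 5.81, 6.13, 6.65 and 10.4 FPKM in the IgG1 libraries, against 6.95, 6.02, 10.0, 7.19 and 6.07 FPKM in the IgM libraries, with full overlap (log2 difference 0.029, SE 0.18, adjusted p = 0.922). Slc16a3 (MCT4), the other lactate carrier of the list, reached at most 0.915 FPKM in IgG1 and 0.526 FPKM in IgM libraries and was below the level tested.

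**Figure D2:**
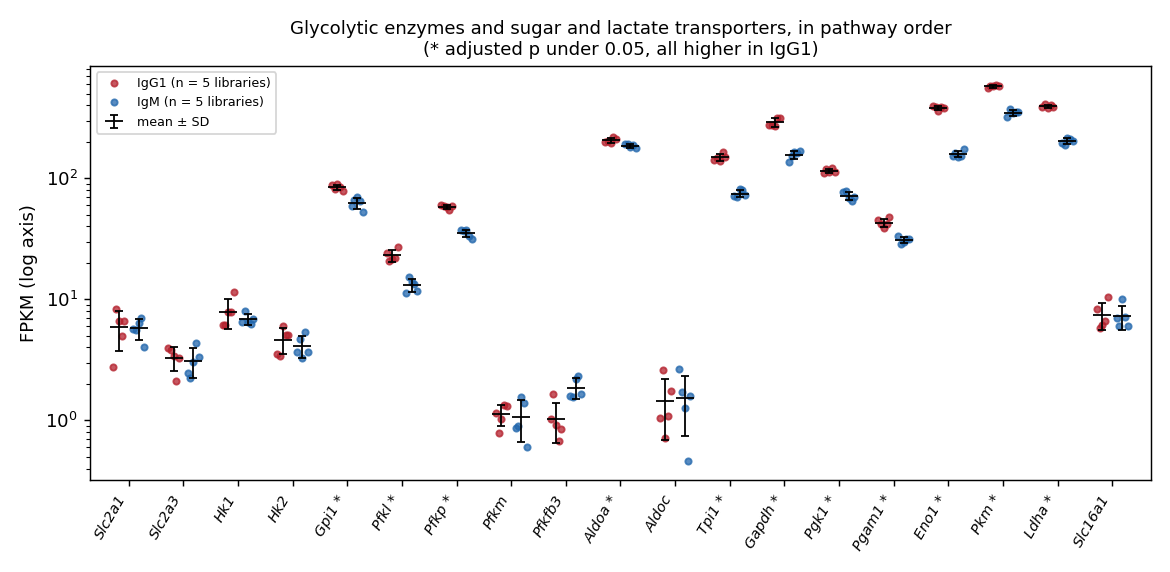
FPKM on a log axis of the 19 tested glycolytic enzymes and transporters in pathway order, 5 IgG1 libraries (red) to the left of 5 IgM libraries (blue), with mean ± SD. The 11 starred genes run from Gpi1 to Ldha and lie higher in all IgG1 libraries, while the transporters, hexokinases, Pfkm, Pfkfb3 and Aldoc overlap.

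Added over the 21 glycolytic and transport genes, FPKM came to 2322, 2353, 2277, 2447 and 2387 in the IgG1 libraries, against 1318, 1395, 1392, 1386 and 1373 in the IgM libraries. The ratio of means was 1.72, and the lowest IgG1 sum lay above the highest IgM sum. The sum is a description of the list and has no test. It is led by Pkm, Ldha, Eno1 and Gapdh. Gapdh has many near-identical copies, and 73 annotated copies aligned over at least 300 bases at 95% identity or more were listed in the files. Their summed level was 21.8 FPKM in IgG1 and 11.9 FPKM in IgM libraries on average, beside 290.5 FPKM in IgG1 and 156 FPKM in IgM cells for Gapdh itself, so a small part of its reads may sit in the copies. The listed copies of Eno1, Pgam1, Pkm, Tpi1, Pgk1 and Ldha summed to at most 0.826 FPKM in either group for each gene.

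Promoter sequence is shown for the genes with the largest difference and with the densest motif matches among the 4 most changed glycolytic genes. Windows of 250 bases upstream of the RefSeq transcription start came from RefSeq on GRCm38.p6, and 44 of the 47 members had one. The motifs searched were CACGTG, the E-box that MYC and MAX bind, which reads alike on both strands, and ACGTG on either strand, the core of the hypoxia response element that HIF binds, which is also contained in CACGTG. Capitals mark ACGTG or its reverse complement CACGT. Of several windows of a gene, the first listed is printed, and both lie on the plus strand of chromosome 7 (46845554 to 46845803, Ldha) and chromosome 4 (150236458 to 150236707, Eno1).
Ldha: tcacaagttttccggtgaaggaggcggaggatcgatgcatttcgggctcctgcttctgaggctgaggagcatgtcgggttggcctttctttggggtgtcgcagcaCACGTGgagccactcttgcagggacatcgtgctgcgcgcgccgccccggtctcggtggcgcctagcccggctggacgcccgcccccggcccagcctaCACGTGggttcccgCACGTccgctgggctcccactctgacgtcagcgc
Eno1: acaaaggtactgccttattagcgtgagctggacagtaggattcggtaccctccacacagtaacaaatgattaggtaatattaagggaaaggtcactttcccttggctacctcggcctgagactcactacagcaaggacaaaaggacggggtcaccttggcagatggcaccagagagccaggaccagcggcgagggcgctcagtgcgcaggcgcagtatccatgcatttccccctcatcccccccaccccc
The Ldha window held CACGTG at 2 places, and the Eno1 window held neither motif. Windows of Tpi1 and Gapdh held neither motif as well. ACGTG lay in a window of 5 of the 11 called glycolytic genes, 6 of 22 called members, 8 of 20 members that did not pass and 26.7% of 7434 tested genes. CACGTG lay in a window of 2 of 22 called members, 3 of 20 others and 10.5% of tested genes. Over all 27025 genes with a window the shares were 18.5% for ACGTG and 6.86% for CACGTG. A match is a description of these letters, not a binding site.

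At the step from pyruvate to acetyl-CoA, 1 of the 4 member genes passed the test, as higher in IgG1 cells. The 4 genes are too few to set against the 18.1% higher of all tested genes. The pyruvate dehydrogenase complex joins the E1 subunits Pdha1 and Pdhb, the E2 core Dlat and the E3 subunit Dld, and the kinase Pdk1 switches E1 off. Dlat had 17.1, 21.2, 24.4, 15.3 and 17.8 FPKM in the IgG1 libraries, against 11.8, 11.6, 12.6, 17.2 and 10.1 FPKM in the IgM libraries. IgM replicate 4 reached into the IgG1 range, the only library to do so (log2 difference 0.57, SE 0.15, adjusted p = 0.00719), and the call ended without a filter on low values (adjusted p = 0.0515, with 0.00204 to 0.0515 over the alternatives). Pdk1 had 10.8, 13.5, 13.7, 12.4 and 8.02 FPKM in the IgG1 libraries, against 14.2, 9.70, 11.4, 11.1 and 12.6 FPKM in the IgM libraries, overlapping fully (log2 difference −0.026, SE 0.16, adjusted p = 0.918). Pdha1 averaged 24.2 ± 2.05 FPKM in IgG1 and 25.3 ± 1.78 FPKM in IgM cells (SD, n = 5 each; adjusted p = 0.644, log2 difference −0.065). Pdhb stood at 88.6 FPKM in IgG1 and 88.2 FPKM in IgM cells (adjusted p = 0.948, log2 difference 0.0078). Pdhx, which holds Dld in the complex and is not among the 47 genes, averaged 11.7 ± 0.555 FPKM in IgG1 and 6.99 ± 2.28 FPKM in IgM cells and was higher in IgG1 cells without overlap (SD, n = 5 each; adjusted p = 0.00441, log2 difference 0.71). The sum over the 4 members was 144 ± 10.4 FPKM in IgG1 and 138 ± 6.96 FPKM in IgM libraries (SD, n = 5 each).

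In the pentose phosphate pathway, 4 of 7 genes were higher in IgG1 cells, G6pdx and Pgls at the entry and Tkt and Taldo1 of the non-oxidative branch, while Pgd, Rpia and Rpe did not pass. Over all tested genes 18.1% were higher, and over those at 10 FPKM or more 29.2%. G6pdx, the X-linked glucose 6-phosphate dehydrogenase that makes the first NADPH, had 37.3, 28.9, 25.9, 30.5 and 31.3 FPKM in the IgG1 libraries, against 25.4, 22.1, 24.1, 23.9 and 20.4 FPKM in the IgM libraries. The groups were separate by a narrow margin (log2 difference 0.39, SE 0.11, adjusted p = 0.00934). Pgls, the lactonase that follows, averaged 47.4 ± 2.64 FPKM in IgG1 and 34.1 ± 3.54 FPKM in IgM cells (SD, n = 5 each; adjusted p = 5.00e-04, log2 difference 0.47), again separate. Both calls ended after removal of trends in length and GC content, G6pdx with a log2 difference of 0.26 (adjusted p = 0.0697, 0.00451 to 0.0697 over the alternatives) and Pgls with 0.24 (adjusted p = 0.0752, 2.89e-04 to 0.0752). Pgd, which makes the second NADPH, had 24.5, 22.3, 26.3, 22.9 and 23.4 FPKM in the IgG1 libraries, against 25.9, 26.4, 26.9, 24.8 and 22.0 FPKM in the IgM libraries and overlapped (log2 difference −0.075, SE 0.10, adjusted p = 0.582). The isomerase Rpia stood at 1.12 FPKM in IgG1 and 1.08 FPKM in IgM cells (adjusted p = 0.996, log2 difference −0.0018). The epimerase Rpe stood at 26.5 FPKM in IgG1 and 30.2 FPKM in IgM cells (adjusted p = 0.163, log2 difference −0.18). Rpe shares 558 exonic bases with Kansl1l on the other strand, which averaged 0.635 FPKM in IgG1 and 1.79 FPKM in IgM libraries. Tkt, the transketolase that links the pathway back to glycolysis, differed most in the branch. Tkt (ENSMUSG00000021957, chromosome 14, 30548359 to 30574720, plus strand) had 57.7, 58.0, 64.9, 64.2 and 64.7 FPKM in the IgG1 libraries, against 31.5, 33.3, 37.9, 34.3 and 29.8 FPKM in the IgM libraries, 1.85 times as much by the ratio of means (log2 difference 0.87, SE 0.09, adjusted p = 3.21e-07). Its partner Taldo1, the transaldolase, had 248, 248, 228, 257 and 243 FPKM in the IgG1 libraries, against 195, 192, 196, 174 and 181 FPKM in the IgM libraries, with no overlap (log2 difference 0.38, SE 0.05, adjusted p = 2.11e-05). The 7 genes together came to 444, 429, 421, 449 and 439 in the IgG1 libraries, against 336, 343, 351, 324 and 320.2 in the IgM libraries, with a ratio of means of 1.30.

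Of 15 citrate cycle genes, 8 were higher in IgG1 cells. The share higher was 18.1% over all tested genes and 29.2% over those at 10 FPKM or more. In several enzymes some subunits passed and others did not, a contrast that was not itself tested. Cs, the citrate synthase that starts the cycle (ENSMUSG00000005683, chromosome 10, 128337734 to 128362479, plus strand), had 129, 126, 118, 139 and 124 FPKM in the IgG1 libraries, against 96.0, 84.9, 88.5, 97.8 and 91.3 FPKM in the IgM libraries, with all IgG1 libraries on top (log2 difference 0.47, SE 0.07, adjusted p = 1.66e-05). The NAD-dependent isocitrate dehydrogenase has a catalytic subunit, Idh3a, and the subunits Idh3b and Idh3g. Idh3a had 34.2, 38.0, 33.1, 39.1 and 43.8 FPKM in the IgG1 libraries, against 24.4, 24.3, 24.8, 31.3 and 27.0 FPKM in the IgM libraries (log2 difference 0.50, SE 0.11, adjusted p = 0.00113), without overlap. Idh3b at 45.1 FPKM in IgG1 and 44.9 FPKM in IgM cells (adjusted p = 0.944, log2 difference 0.011) and Idh3g at 109.8 FPKM in IgG1 and 106 FPKM in IgM cells (adjusted p = 0.567, log2 difference 0.060) did not pass. Idh2, the NADP-dependent mitochondrial form, had 83.9, 88.2, 92.0, 93.3 and 95.2 FPKM in the IgG1 libraries, against 62.2, 66.1, 49.7, 66.0 and 64.7 FPKM in the IgM libraries, and IgM replicate 3 was lowest (log2 difference 0.55, SE 0.08, adjusted p = 3.99e-05).

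The 2-oxoglutarate dehydrogenase complex is built from Ogdh, Dlst and Dld. Ogdh, its E1 component, had 76.2, 87.2, 82.1, 79.7 and 72.0 FPKM in the IgG1 libraries, against 61.7, 62.1, 68.5, 62.1 and 71.8 FPKM in the IgM libraries. The lowest IgG1 and the highest IgM library almost touched (log2 difference 0.28, SE 0.08, adjusted p = 0.00687). Dlst, the E2 component, averaged 20.6 ± 4.55 FPKM in IgG1 and 18.5 ± 1.44 FPKM in IgM cells (SD, n = 5 each; adjusted p = 0.485, log2 difference 0.13). Dld, the E3 component that this complex shares with pyruvate dehydrogenase, had 50.6, 50.5, 51.0, 47.7 and 48.2 FPKM in the IgG1 libraries, against 51.2, 54.4, 58.8, 55.6 and 56.2 FPKM in the IgM libraries. Every IgG1 library lay below every IgM library, yet the difference did not pass (log2 difference −0.15, SE 0.07, adjusted p = 0.112). Dld passed under 1 of 21 alternatives, the common total without immunoglobulin genes and Jchain, which was chosen after seeing the data (log2 difference −0.23, adjusted p = 0.0219, with 0.0219 to 0.795 over the alternatives).

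Succinyl-CoA ligase pairs the alpha subunit Suclg1 with either the ATP-forming Sucla2 or the GTP-forming Suclg2. Suclg1 had 80.9, 71.6, 70.3, 76.4 and 72.5 FPKM in the IgG1 libraries, against 54.5, 41.5, 55.0, 58.4 and 55.3 FPKM in the IgM libraries, with no overlap (log2 difference 0.49, SE 0.09, adjusted p = 3.10e-04). Sucla2 stood at 29.6 FPKM in IgG1 and 29.8 FPKM in IgM cells (adjusted p = 0.968, log2 difference −0.0090). Suclg2 stood at 16.9 FPKM in IgG1 and 16.0 FPKM in IgM cells (adjusted p = 0.642, log2 difference 0.095). Fh1, fumarate hydratase, had 38.4, 38.6, 38.6, 28.8 and 37.5 FPKM in the IgG1 libraries, against 26.1, 29.1, 29.0, 26.9 and 23.2 FPKM in the IgM libraries. IgG1 replicate 4 fell into the IgM range and the other IgG1 libraries were above it (log2 difference 0.42, SE 0.11, adjusted p = 0.00447). Me2, the mitochondrial malic enzyme that turns malate into pyruvate, had 45.3, 51.6, 55.4, 48.2 and 60.5 FPKM in the IgG1 libraries, against 35.2, 28.9, 38.2, 41.5 and 34.2 FPKM in the IgM libraries, and its groups were separate (log2 difference 0.54, SE 0.11, adjusted p = 5.21e-04). Malate dehydrogenase has a mitochondrial form, Mdh2, and a cytosolic form, Mdh1. Mdh2 (ENSMUSG00000019179, chromosome 5, 135778480 to 135790398, plus strand) had 419, 420.4, 420.1, 445 and 412 FPKM in the IgG1 libraries, against 313, 308, 299.9, 293 and 285 FPKM in the IgM libraries (log2 difference 0.50, SE 0.05, adjusted p = 1.37e-07), far apart for the spread within each group. Mdh1 had 340.5, 387, 388, 369 and 385 FPKM in the IgG1 libraries, against 378, 399, 433, 391 and 393 FPKM in the IgM libraries, and the groups overlapped (log2 difference −0.094, SE 0.05, adjusted p = 0.161). Mdh1 passed as lower under the same single alternative as Dld (log2 difference −0.17, adjusted p = 0.00848, with 0.00848 to 0.450 over the alternatives). Over the 15 genes FPKM summed to 1516, 1574, 1567, 1598 and 1579 in the IgG1 libraries, against 1319.8, 1306, 1356, 1345 and 1320.2 in the IgM libraries, a ratio of means of 1.18.

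**Figure D3:**
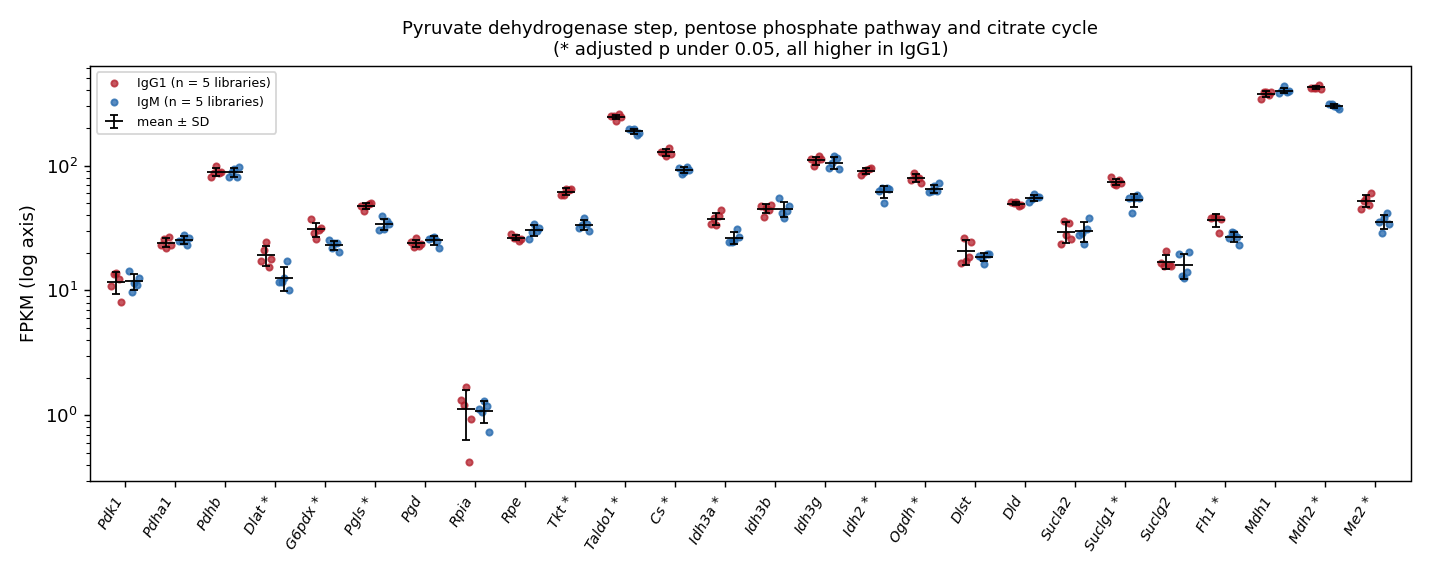
FPKM on a log axis of the 26 tested genes of the pyruvate dehydrogenase step, the pentose phosphate pathway and the citrate cycle, 5 IgG1 libraries (red) to the left of 5 IgM libraries (blue), with mean ± SD. The 13 starred genes passed, Tkt with the largest gap, while Mdh1 overlaps beside a separated Mdh2.

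**Figure D4:**
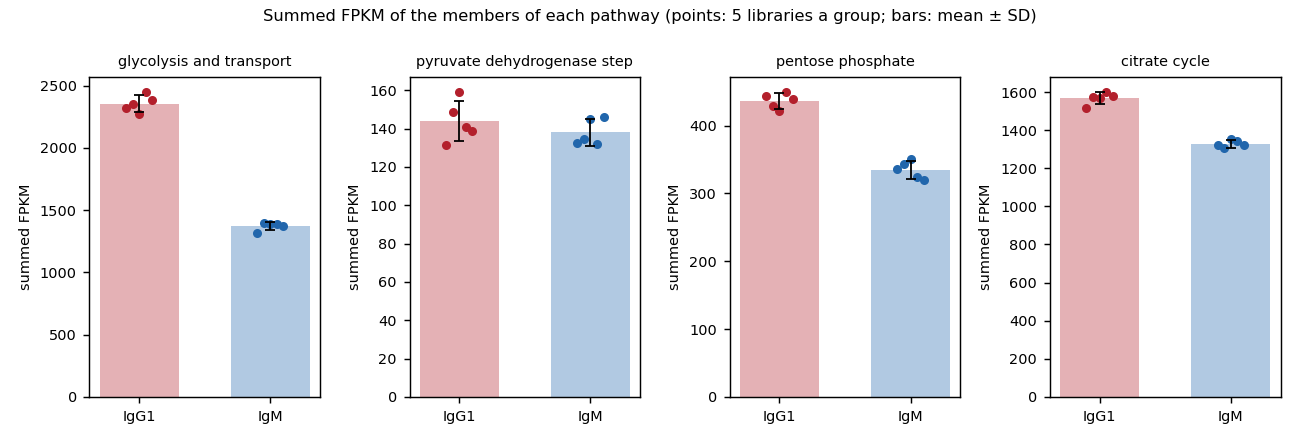
Summed FPKM of the members of each pathway, IgG1 to the left of IgM, with 5 points a group, bars for the mean and error bars for the SD. Glycolysis averages 2357 in IgG1 and 1373 in IgM libraries, the citrate cycle 1567 in IgG1 and 1329 in IgM libraries, and the pyruvate dehydrogenase step overlaps.

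The balance between related forms of an enzyme was compared as the share of 1 form in the summed FPKM of its family, since FPKM is scaled to length. Mdh1 made up 44.8, 47.9, 48.0, 45.3 and 48.3% of Mdh1 plus Mdh2 in the IgG1 libraries, against 54.7, 56.4, 59.1, 57.2 and 57.9% in the IgM libraries. The groups were separate, and the difference in means was −10.2 percentage points (exact two-sided permutation test, p = 0.00794, adjusted p = 0.0635 over 8 shares). With 5 libraries a group no smaller p exists, so a single separated share among 8 cannot pass after adjustment, and 0 of the 8 passed (1 at an unadjusted p under 0.05). Pfkp made up 70.6% ± 2.12 of phosphofructokinase subunits in IgG1 and 71.2% ± 2.53 in IgM libraries (SD, n = 5 each, exact permutation p = 0.706). Hk2 made up 37.2% ± 4.68 of Hk1 plus Hk2 in IgG1 and 37.5% ± 4.92 in IgM libraries (exact permutation p = 0.921). The shares of Slc2a3, Aldoc, Slc16a3 and Suclg2 in their families gave exact permutation p-values of 0.754, 0.619, 0.516 and 0.556, and the share of Ldhb was 0 in every library.

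Of 56 other genes of carbon metabolism, 43 were tested. Of these, 14 were higher and 3 lower in IgG1 cells (median log2 difference 0.11). Of all tested genes 18.1% were higher and 20.2% lower, and of those at 10 FPKM or more 29.2% were higher. The higher count stands near that of abundant genes. Both subunits of the mitochondrial pyruvate carrier were higher. Mpc2 had 307, 314, 335, 349.8 and 349 FPKM in the IgG1 libraries, against 199, 178, 204, 215 and 199 FPKM in the IgM libraries (log2 difference 0.73, SE 0.06, adjusted p = 2.89e-08). Mpc1 averaged 74.7 FPKM in IgG1 and 54.7 FPKM in IgM cells (adjusted p = 2.06e-04, log2 difference 0.45). Succinate dehydrogenase, which turns succinate into fumarate, is a citrate cycle enzyme outside the 15 members. Sdhb averaged 277 FPKM in IgG1 and 175 FPKM in IgM cells (adjusted p = 7.74e-08, log2 difference 0.66). Sdhd averaged 156 FPKM in IgG1 and 98.3 FPKM in IgM cells (adjusted p = 7.50e-06, log2 difference 0.65). The subunit Sdha averaged 104 FPKM in IgG1 and 84.1 FPKM in IgM cells (adjusted p = 0.00599, log2 difference 0.30). The remaining subunit Sdhc averaged 48.3 FPKM in IgG1 and 44.0 FPKM in IgM cells and did not pass (adjusted p = 0.313, log2 difference 0.13). Got2, the mitochondrial aspartate transaminase, averaged 187 FPKM in IgG1 and 135 FPKM in IgM cells (adjusted p = 6.12e-06, log2 difference 0.47). Among the lower genes was the cytosolic isocitrate dehydrogenase Idh1 at 5.33 FPKM in IgG1 and 11.6 FPKM in IgM cells (adjusted p = 1.94e-04, log2 difference −1.02). Another was Pfkfb2, a relative of Pfkfb3, at 0.879 FPKM in IgG1 and 2.39 FPKM in IgM cells (adjusted p = 0.0218, log2 difference −0.91).

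Among 26 listed regulators of these pathways, 19 were tested, 2 were higher and 4 lower in IgG1 cells. Of all tested genes 18.1% were higher and 20.2% lower, so both counts are near or below that background. Myc, a transcription factor known to activate glycolytic genes, had 17.7, 20.7, 16.2, 19.8 and 15.6 FPKM in the IgG1 libraries, against 8.18, 12.7, 7.46, 12.3 and 11.9 FPKM in the IgM libraries. Every IgG1 library was above every IgM library (log2 difference 0.74, SE 0.16, adjusted p = 0.00115). Trp53, the tumour suppressor p53, averaged 33.3 FPKM in IgG1 and 26.7 FPKM in IgM cells (adjusted p = 0.0362, log2 difference 0.31). Txnip, which restrains glucose uptake, averaged 23.0 FPKM in IgG1 and 36.2 FPKM in IgM cells (adjusted p = 3.46e-04, log2 difference −0.64). Its activator Mlxip averaged 7.37 FPKM in IgG1 and 10.8 FPKM in IgM cells (adjusted p = 0.00952, log2 difference −0.50). The kinase Pim1 averaged 7.15 FPKM in IgG1 and 14.9 FPKM in IgM cells (adjusted p = 5.43e-05, log2 difference −0.96). The factor Irf4 averaged 55.7 FPKM in IgG1 and 65.5 FPKM in IgM cells (adjusted p = 0.0496, log2 difference −0.24). Hif1a, the oxygen-regulated factor that also activates glycolytic genes, averaged 9.67 FPKM in IgG1 and 11.2 FPKM in IgM cells and did not pass (adjusted p = 0.348, log2 difference −0.20). Of 16 HIF target genes outside glycolysis, 5 were tested, and 0 were higher and 3 lower (limma; 0 higher at an unadjusted p under 0.05 as well). These are too few to set against the 18.1% higher and 20.2% lower of all tested genes. The lower genes were the mitophagy receptor Bnip3l at 28.7 FPKM in IgG1 and 45.7 FPKM in IgM cells (adjusted p = 0.00103, log2 difference −0.66), the histone demethylase Kdm3a at 7.71 FPKM in IgG1 and 12.8 FPKM in IgM cells (adjusted p = 0.00183, log2 difference −0.66) and the MAX partner Mxi1 at 3.02 FPKM in IgG1 and 4.78 FPKM in IgM cells (adjusted p = 0.0247, log2 difference −0.53).

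Other features moved with the same groups. Of 12 proliferation markers, 11 were higher in IgG1 cells and Mki67 was not called, and their summed level was 1662 to 1788 FPKM in IgG1 against 965 to 1179 FPKM in IgM libraries. Of all tested genes 18.1% were higher, and of those at 10 FPKM or more 29.2%. The replication helicase subunit Mcm5 averaged 91.3 FPKM in IgG1 and 37.7 FPKM in IgM cells (adjusted p = 2.88e-08, log2 difference 1.26), and Mki67 36.4 FPKM in IgG1 and 43.2 FPKM in IgM cells (adjusted p = 0.0625, log2 difference −0.24). Of 8 mature B cell markers, 4 were tested and all 4 were lower, with summed levels over the 8 of 78.6 to 95.6 FPKM in IgG1 and 118 to 145 FPKM in IgM libraries. Over all tested genes 20.2% were lower, and 4 genes are few to set against that share. Pax5, the factor that keeps B cell identity, averaged 0.0600 FPKM in IgG1 and 0.0704 FPKM in IgM cells. Their part in the glycolytic differences was not tested. Base composition also went with the difference over all genes. In the fifth of tested genes with the lowest GC content 8.25% were higher in IgG1 cells, and in the fifth with the highest 26.9%. The called members had a median transcript GC content of 53.7% and the members that did not pass 48.4%, where all tested genes had 50.1%. With length and GC trends removed, 21 of the 24 calls remained, those of Aldoa, G6pdx and Pgls being lost, and Eno1 stood at a log2 difference of 1.10, Ldha at 0.85 and Tpi1 at 0.82.

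**Figure D5:**
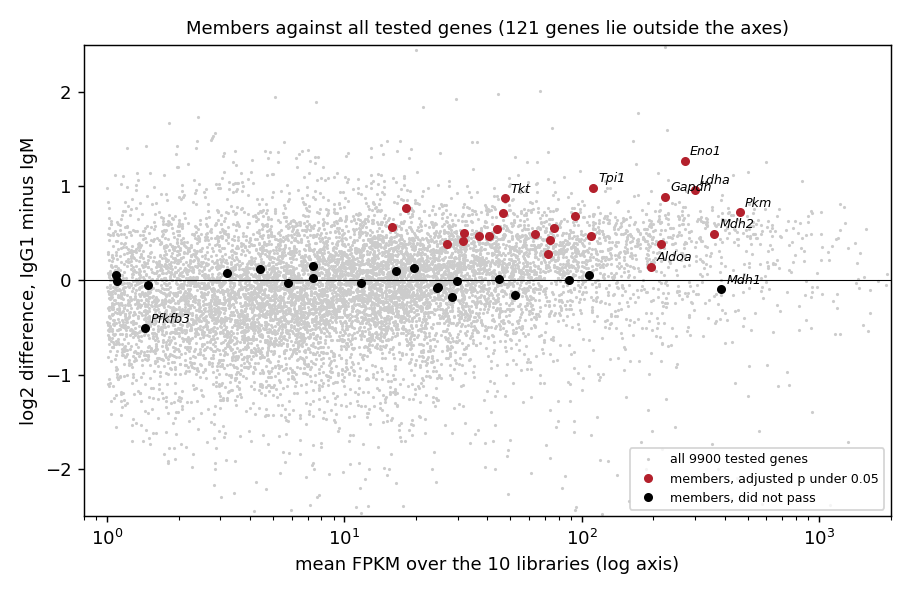
Log2 difference between IgG1 and IgM cells against mean FPKM over the 10 libraries (log axis) for all 9900 tested genes (grey), the 24 called members (red) and the 21 that did not pass (black). The called members lie at 10 FPKM or more, and Eno1, Tpi1, Ldha, Gapdh and Tkt stand highest among them. In all, 121 genes lie outside the axes.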

How the data were processed

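Total RNA of sorted splenic plasma cells (5 IgG1 and 5 IgM libraries, grouped by title) was taken with Qiagen's miRNeasy Micro and turned into SMART-Seq mRNA HT LP libraries, per the labels' protocols. Strand is not marked by that kit. The authors' tools, per the submitters' processing notes, were Cuffdiff, Cufflinks 2.2.1 and HISAT2 2.1.0 on GRCm38; the sources used here name neither settings nor annotation. Files hold FPKM, per the file headers, by Ensembl gene identifier, 1 file a library. No scaling across libraries is stated. Of 47719 identifiers, 47305 matched GENCODE M21. No pair of files was identical. The labels give no batch.

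Depth was read from the spacing of low FPKM values under an assumed fragment of 200 bases; it gives relative precision and no counting interval. The test was limma 3.58.1 (R 4.3.3; eBayes with trend and robust) on log2(FPKM + 1), which understates changes of low genes, for the 9900 genes averaging 1 FPKM or more. It had no term but group, was two-sided, and used Benjamini-Hochberg adjusted p-values, with a threshold of 0.05. Differences are IgG1 minus IgM. Shares within enzyme families were compared by two-sided exact permutation tests (scipy 1.17.1, 252 arrangements). On simulated data over 9900 genes of this comparison, with 50 changed at each size, the share recovered was 22% for a 1.25-fold change, 54% for 1.5-fold, 88% for 2-fold and 92% for 4-fold, and 5 calls were false. Far fewer genes were changed there than the 3792 called in the data, which makes the adjustment stricter. The changed genes excluded the lowest levels, and noise was independent between genes. The shares recovered are thus a check of the code and no measure of power here. Alternatives were other pseudocounts (0.1 and 5), filters (none, 5 FPKM), scalings, variance models, removal of length and GC trends, a replicate block, and each library left out in turn; a common total without immunoglobulin genes and Jchain was added after seeing the data. The members and all gene lists were chosen with earlier results of these data known. Shown library by library were the members with the largest called differences of each pathway and a fixed set of rate-setting steps; other members given that way were added after their values were seen. Related lists give up to 4 called genes each way by smallest p, with further members named after their values were seen; some genes of these lists are not reported here. Tables and plots used Python 3.11.15, numpy 2.4.6, pandas 2.3.3 and matplotlib 3.10.9.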

Additional observations from a re-analysis of the deposited data

Results flagged for a closer look

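Of 116 sets of 5 library values (FPKM of each member, pathway sums and isozyme shares), 8 had 1 library standing far from the other 4 by Dixon's test, which chance alone gives in about 5% of sets. Idh2 was at 49.7 FPKM in IgM replicate 3, the lowest of its group, and Suclg1 at 41.5 FPKM in IgM replicate 2. Suclg2 was at 20.8 FPKM in IgG1 replicate 3, the highest of its group. Fh1 was at 28.8 FPKM in IgG1 replicate 4, the library that reached the IgM range. Mdh2 was at 444.9 FPKM in IgG1 replicate 4, above an otherwise tight group. The summed FPKM of the glycolytic and transport genes was lowest, at 1318, in IgM replicate 1. Slc2a3 made up 58.9% of Slc2a1 plus Slc2a3 in IgG1 replicate 1, the library with the lowest Slc2a1. Hk2 made up 46.0% of Hk1 plus Hk2 in IgM replicate 4. No single library accounts for more than 2 of these values, and what sets them apart was not tested.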

How the results depend on the processing

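Of the 24 calls, 20 held under all 21 alternatives, the exceptions being Aldoa, Dlat, G6pdx and Pgls, whose values stand in the report. Members higher in IgG1 cells numbered 21 to 24 and lower 0, except for 1 lower with length and GC trends removed (Pfkfb3), 1 with the plain variance model (Pfkfb3) and 2 with the common total without immunoglobulin genes and Jchain (Dld and Mdh1). Of all genes, quantile normalization called 2182 higher and 1510 lower, against 1791 and 2001 as reported, and that common total called 1474 and 2415. The median log2 difference of all genes was 0.061 with quantile normalization and −0.12 with that common total, against −0.051 as reported, and the members' median was 0.33 with quantile normalization, 0.20 with that total and 0.28 as reported. Without a filter 1316 were higher and 1502 lower of 24060. Deviations of same-numbered libraries were only weakly correlated (0.040, −0.036, 0.097, 0.070 and −0.027). Such values cannot decide whether replicate numbers pair the samples, and the labels do not say. With the replicate block 1749 genes were higher and 1952 lower, and 23 members higher and 0 lower, Aldoa alone losing its call (adjusted p = 0.0661). Of the isozyme shares, 0 of 8 passed under the alternatives run, which says nothing about stability, since a single separated share cannot pass. Directions that turned belong to members that did not pass, and to Aldoa. With quantile normalization, the log2 difference was 0.17 for Slc2a1, 0.20 for Aldoc, 0.085 for Pdk1, −0.072 for Pdhb, 0.26 for Rpia and 0.027 for Sucla2. With length and GC trends removed, the log2 difference was −0.0055 for Pfkm, −0.095 for Aldoa, 0.0011 for Pdk1, 0.033 for Pdha1, 0.11 for Rpia, 0.13 for Rpe, −0.074 for Idh3b, −0.0024 for Idh3g, 0.029 for Dld and 0.20 for Sucla2. With the common total without immunoglobulin genes and Jchain, the log2 difference was −0.041 for Slc16a1, −0.071 for Pdhb, −0.067 for Idh3b and −0.019 for Idh3g. Without immunoglobulin genes alone, the log2 difference was −0.016 for Pdhb and −0.012 for Idh3b. With a pseudocount of 5, the log2 difference was 0.0054 for Rpia. With median-ratio scaling, the log2 difference was 0.012 for Rpia and 0.017 for Sucla2. With 1 library left out, the log2 difference ran for Slc2a1 from −0.15 to 0.18, Slc2a3 from −0.0044 to 0.19, Pfkm from −0.032 to 0.14, Aldoc from −0.24 to 0.097, Slc16a1 from −0.085 to 0.14, Pdk1 from −0.088 to 0.092, Pdhb from −0.032 to 0.043, Rpia from −0.098 to 0.13, Idh3b from −0.041 to 0.084 and Sucla2 from −0.086 to 0.080. The differences in share, in percentage points, ran for Slc2a3 of Slc2a1 plus Slc2a3 from −2.98 to 4.98, Hk2 of Hk1 plus Hk2 from −1.86 to 1.81, Pfkp of Pfkl plus Pfkp plus Pfkm from −1.23 to 0.444 and Aldoc of Aldoa plus Aldoc from −0.271 to 0.00781. Depth is only estimated, and the 9 tested members under 10 FPKM have the widest errors.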
